A study of Rattus norvegicus with 6 samples.

Results

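Integrins and the proteins of focal adhesions were followed in rat cells treated with endothelial exosomes. Members were taken by name from the deposited gene table: every protein-coding integrin alpha or beta chain with a matching symbol, and 17 intracellular components (talins, kindlins, ILK, parvin, PINCH, kinases, scaffolds and actin linkers). The rule found 41 genes among 33350 gene models, namely 17 alpha chains, 7 beta chains and the 17 intracellular components. Of these, 29 reached a mean of at least 1 FPKM (reads scaled to gene length and library size) over all libraries and were tested.

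RNA was sequenced from 6 libraries labelled PC12, a line derived from a rat adrenal pheochromocytoma. The 3 EN libraries came from cells given exosomes of endothelial cells with high expression of netrin-1 (NTN1), a secreted guidance protein. The 3 EC libraries came from cells given exosomes of control endothelial cells, so every library is of exosome-treated cells. The sources used here give neither the exosome dose nor the exposure time. They also do not say whether the replicates were separate cultures, so the spread behind each p-value is that among these libraries and may be technical. The markers did not match the label: 2 of 12 chromaffin genes had a mean of at least 1 FPKM, with no read for Pnmt or Hand2, whereas 10 of 11 Schwann and glial genes did.

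Integrins are heterodimers of an alpha and a beta chain that span the membrane and bind matrix proteins outside the cell. Inside, talin and kindlin bind the beta tail and switch the receptor on, the complex of ILK, PINCH and parvin docks there, and vinculin, zyxin and the alpha-actinins tie the site to actin filaments. Focal adhesion kinase, Src, paxillin and p130Cas relay the signal. In peripheral nerve, laminin-binding integrins hold Schwann cells to their basal lamina, and integrins containing the alpha3 or alpha6 chain have been described as receptors for netrin-1 in other cells.

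The clearest differences were lower transcript levels of the beta8 chain and of kindlin-2 in EN, and higher levels for alpha-actinin-4. Only RNA was measured, so protein amounts are not known from these data. Among laminin receptor chains, Itga3 transcripts were 1.14-fold higher and Itga6 transcripts 1.15-fold lower, while Itga7 did not pass the test. Neither Itga3 nor Itga6 passed it without EN replicate 1, EN replicate 2, EC replicate 2 or EC replicate 3. In total 2 of the 29 tested members passed as higher in EN and 6 as lower, which left 21 that did not pass (limma, Benjamini-Hochberg adjusted p under 0.05 over 12198 genes). Called members were thus 27.6% of those tested, against 14.4% of all genes tested. For the higher direction the shares were 6.90% of members against 7.24% of all genes, and for the lower direction 20.7% against 7.14%. The members were more abundant than genes at large: 24 of the 29 had a mean of at least 10 FPKM, against 7224 of 12198 genes. With a minimum mean of 5 FPKM, 2 of 24 members were higher and 6 lower, against 2022 of 9204 genes called in either direction. Those 2022 were not split by direction, so the lower share cannot be compared at this filter. The part of abundance in the shares was not tested. With single libraries left out, 1 to 2 members were higher and 2 to 8 lower. Only 2 were lower without EN replicate 1, EN replicate 2, EC replicate 2 or EC replicate 3, and 3 without EC replicate 1, while 1 was higher without each of the first 4 of these. Calls over the whole table fell in those 4 fits as well, to 446, 344, 338 and 408 of 12198 genes in that order. Without EC replicate 1 they were 1616, against 1754 with all libraries. The median log2 change of the 29 members was 0.0035, against -0.0028 over all genes, with members on both sides of 0. Each log2 change below is the difference of mean log2(FPKM + 1), a scale on which low genes appear to differ less than they do, while folds are ratios of mean FPKM.

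Promoter windows are shown for the 3 called integrin chains that have one in the RefSeq table, Itgb8 and Itga10 (lower in EN) and Itga3 (higher in EN). Each is the 250 bases before the RefSeq start on the GRCr8 build, written 5′ to 3′ on the gene's strand: chr6:146351246-146351495 (minus strand) for Itgb8, chr2:186871461-186871710 (plus strand) for Itga10 and chr10:80518902-80519151 (minus strand) for Itga3. Capitals mark a match, on either strand, to the Sp1 GC box GGGCGG or the TEAD core CATTCC.
Itgb8: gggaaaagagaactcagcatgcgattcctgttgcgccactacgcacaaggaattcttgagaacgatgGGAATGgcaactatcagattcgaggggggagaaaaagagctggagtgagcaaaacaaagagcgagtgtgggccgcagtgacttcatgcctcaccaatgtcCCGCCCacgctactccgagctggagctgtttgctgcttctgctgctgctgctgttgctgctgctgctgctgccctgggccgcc
Itga10: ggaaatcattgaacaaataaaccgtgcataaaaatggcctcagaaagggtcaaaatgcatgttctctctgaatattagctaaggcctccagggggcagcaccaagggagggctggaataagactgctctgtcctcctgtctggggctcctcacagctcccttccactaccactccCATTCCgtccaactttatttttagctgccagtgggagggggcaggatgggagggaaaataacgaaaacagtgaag
Itga3: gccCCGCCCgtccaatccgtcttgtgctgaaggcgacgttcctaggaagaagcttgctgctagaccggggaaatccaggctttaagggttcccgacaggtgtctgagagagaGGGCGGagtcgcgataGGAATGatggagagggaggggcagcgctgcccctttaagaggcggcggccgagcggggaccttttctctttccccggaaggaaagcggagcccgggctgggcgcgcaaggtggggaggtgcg

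All 3 windows hold 1 TEAD core, which starts 183 bases before the gene start in Itgb8, 75 in Itga10 and 122 in Itga3. The same letters occur in 11.8% of 27457 rat promoter windows of that length, and in 6 of the 30 members with a window. Of the 5 called members with a window, Ilk and Tns3 have no TEAD core. A GC box is present in Itgb8 (83 bases before the start) and in Itga3 (247 and 138), and in Ilk and Tns3, but not in Itga10. It is in 17 of the 30 members' windows, against 32.4% of all windows. The AP-1 letters TGANTCA and the TATA letters TATAAA were searched on both strands as well and are in none of these 3 windows, against 6.36% and 13.1% of all windows. These matches describe letters only, on a build other than that of the gene table.

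**Figure D1:**
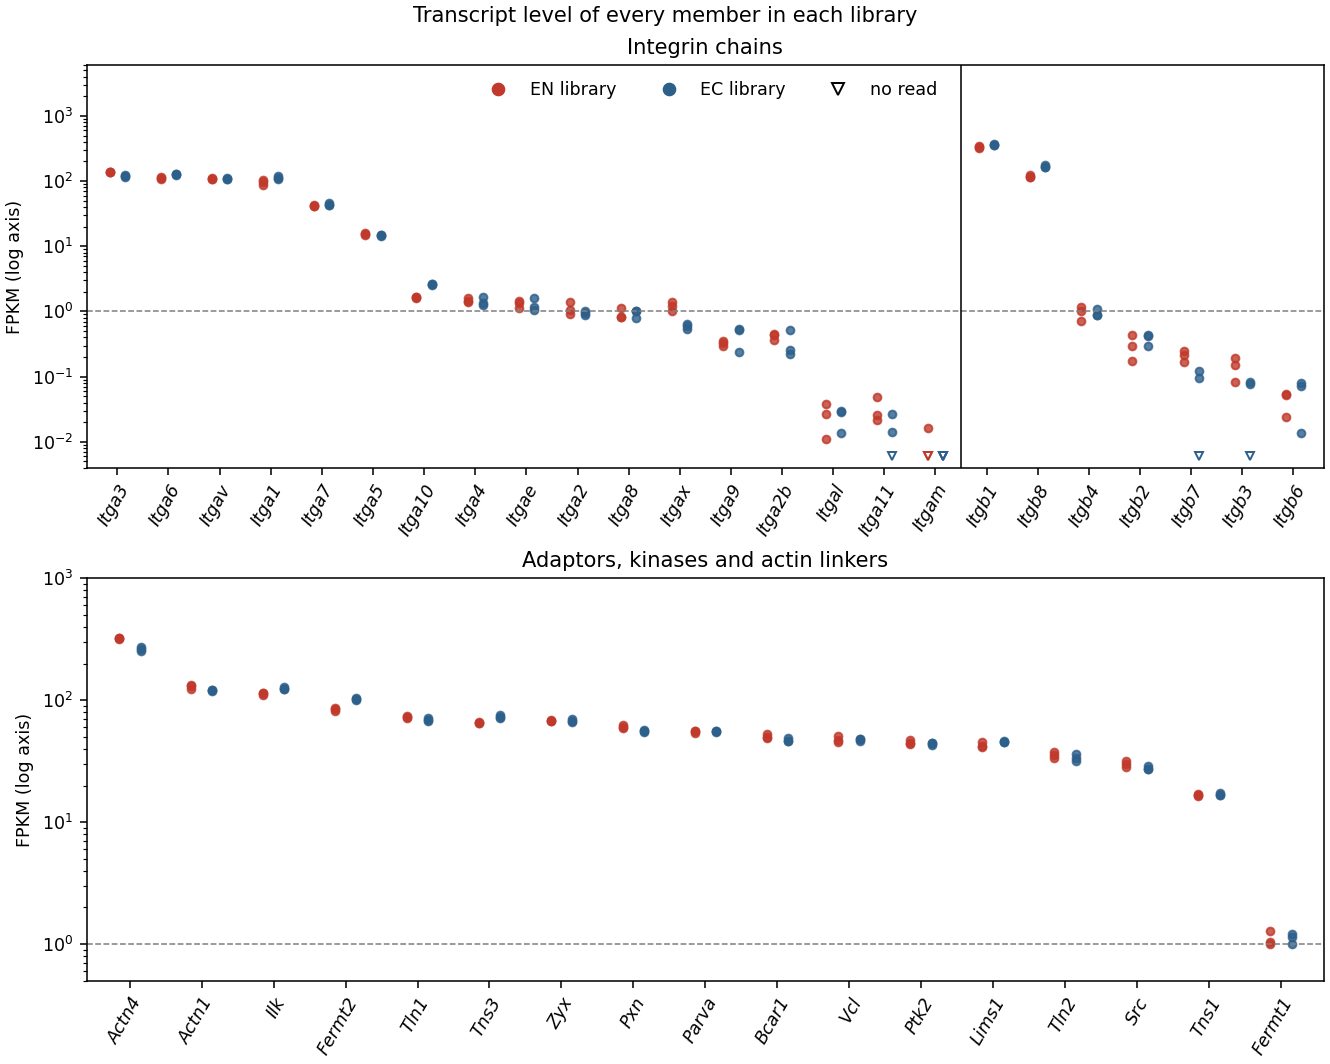
FPKM (log axis) of all 41 members in each library, alpha chains left of the vertical line, beta chains right of it, and intracellular components in the lower panel. Open triangles mark libraries without a read, the dashed line is 1 FPKM, and 8 chains lie above 10 FPKM while the others reach 2.60 FPKM at most.

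The integrin repertoire of these libraries was narrow. Only 6 of 17 alpha chains (Itga3, Itga6, Itgav, Itga1, Itga7 and Itga5) and 2 of 7 beta chains (Itgb1 and Itgb8) had a mean of at least 10 FPKM. The 6 alpha chains carried 98.4% ± 0.129 of the summed alpha FPKM in EN and 98.4% ± 0.092 in EC (SD, n = 3 each). Itgb1 and Itgb8 carried 99.6% ± 0.056 of the summed beta FPKM in EN and 99.7% ± 0.037 in EC. Itgb5, a partner of the alphav chain, is listed as a processed transcript in the table and so fell outside the rule. The beta counts, shares and sums here leave Itgb5 out, though only Itgb1 and Itgb8 were higher among the beta chains. With Itgb5 counted, the share of those 2 would be smaller. Itgb5 stood at 67.8 ± 0.705 FPKM in EN and 70.4 ± 3.22 in EC and did not pass (log2 change -0.05, limma adjusted p = 0.421).

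Itga3 encodes the alpha3 chain, a laminin receptor with beta1 (chromosome 10, 82855613 to 82887497 on Rnor_6.0, minus strand). It measured 136.2, 135.8 and 139.0 FPKM in EN replicates 1 to 3, against 122.4, 121.3 and 116.0 FPKM in EC replicates 1 to 3. All EN libraries lay above all EC libraries. The mean was 1.14-fold higher in EN (log2 change 0.19, SE 0.035, limma adjusted p = 0.020).

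Itga6 encodes the alpha6 chain, which also forms laminin receptors (chromosome 3, 58443101 to 58515124, plus strand). Its levels were 107.4, 110.8 and 114.0 FPKM in EN and 122.2, 128.5 and 130.0 FPKM in EC. Here every EN library lay below every EC library, and the mean was 1.15-fold lower in EN (log2 change -0.20, SE 0.040, limma adjusted p = 0.026).

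The order of the alpha chains by mean level therefore differed between the groups, though not in every library. In EN, Itga3 stood above Itga6 in all libraries, Itga6 and Itgav overlapped (107.4 to 114.0 and 105.8 to 113.2 FPKM), and Itga1 lay below both at 87.1 to 103.8 FPKM. In EC, the mean of Itga6 was highest, but its range met that of Itga3, and the ranges of Itga3, Itga1 and Itgav also overlapped in turn. EC replicate 1 had Itga3 and Itga6 nearly level, at 122.4 and 122.2 FPKM. The within-library ratio of Itga3 to Itga6 FPKM was 1.24 ± 0.027 in EN and 0.946 ± 0.055 in EC (SD, n = 3 each). As a share of summed alpha FPKM, Itga3 held 26.5% ± 0.488 in EN and 22.4% ± 0.877 in EC, and Itga6 held 21.4% ± 0.089 in EN and 23.7% ± 0.659 in EC.

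Itga10 encodes a collagen-binding alpha chain best known from cartilage (chromosome 2, 198772937 to 198792253, plus strand). It had 1.66, 1.61 and 1.65 FPKM in EN, against 2.60, 2.52 and 2.60 FPKM in EC, from 146, 162 and 138 reads in EN and 202, 192 and 211 reads in EC. The groups did not overlap, and the mean was 1.57-fold lower in EN (log2 change -0.44, SE 0.097, limma adjusted p = 0.030). At this low level it supplied little of the alpha total.

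Itga1, the alpha1 chain of a collagen and laminin receptor, measured 87.1, 96.0 and 103.8 FPKM in EN and 110.6, 108.2 and 119.6 FPKM in EC. The EN libraries were all below the EC libraries, but the difference did not pass (log2 change -0.24, 95% interval -0.40 to -0.07, limma adjusted p = 0.065). Over the alternatives its adjusted p ran between 0.024 and 0.184, and it was under 0.05 in 5 of them: without EN replicate 3 (0.031), with limma voom on whole reads (0.024), with the replicate block (0.033), with a minimum mean of 5 FPKM (0.047) and with protein-coding models only (0.048). The model of Pelo lies inside Itga1 on the same strand, so some reads could be assigned to either.

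Of the other abundant alpha chains none passed. Itgav, the partner of several beta chains including beta8, stood at 108.7 ± 3.98 FPKM in EN and 108.4 ± 1.81 in EC (log2 change 0.0035, 95% interval -0.09 to 0.09). Itga7, a laminin-binding chain, stood at 42.1 ± 1.35 FPKM in EN and 43.8 ± 1.90 in EC (log2 change -0.06, interval -0.17 to 0.05). Itga5, the main fibronectin receptor chain, stood at 15.6 ± 0.681 FPKM in EN and 14.7 ± 0.341 in EC (log2 change 0.08, interval -0.04 to 0.20). The low chains Itga4, Itgae and Itga2 averaged 1.04 to 1.46 FPKM over the 6 libraries, and their intervals reached from -0.33 to 0.48, so that differences of that size were not detectable here. Itgae spans several other gene models.

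Itgb8 had a log2 change of -0.50, the largest of the tested members on the log2(FPKM + 1) scale (chromosome 6, 147094097 to 147172813, minus strand). The low gene Itga10 had the larger fold of mean FPKM, and its log2 change was also larger than that of Itgb8 with a pseudocount of 0.1 (-0.62), with a pseudocount of 0.5 (-0.52), on the TPM scale (-0.51) and with limma voom (-0.63). The beta8 chain pairs with alphav and is known for releasing active TGF-beta from its latent form. Itgb8 measured 114.6, 114.0 and 125.9 FPKM in EN, against 162.8, 164.0 and 176.9 FPKM in EC. The highest EN library lay well below the lowest EC library, and the mean was 1.42-fold lower in EN (log2 change -0.50, SE 0.054, limma adjusted p = 0.0048).

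Itgb1, the common partner of most alpha chains, was the highest member, with 321.7, 332.1 and 342.8 FPKM in EN and 357.2, 369.7 and 356.7 FPKM in EC. All EN libraries were below all EC libraries by a small margin, and the difference did not pass (log2 change -0.12, 95% interval -0.21 to -0.03, limma adjusted p = 0.074). Its adjusted p ran between 0.037 and 0.224 over the alternatives, and it was under 0.05 without EN replicate 3 (0.044) and with limma voom (0.037). The ratio of Itgb8 to Itgb1 FPKM was 0.356 ± 0.012 in EN and 0.465 ± 0.027 in EC (SD, n = 3 each). Summed over the 7 beta chains, FPKM was 438.2, 447.6 and 470.3 in EN and 521.7, 535.1 and 535.1 in EC, a log2 ratio of -0.23 (exact two-sided permutation p = 0.1, the smallest that 3 against 3 allows). The sum over the alpha chains was 504.5, 516.2 and 533.6 FPKM in EN and 532.1, 531.0 and 541.7 in EC, and the groups overlapped (log2 ratio -0.05, exact permutation p = 0.3).

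The 12 members under 1 FPKM were not tested. They include the leukocyte chains Itgal, Itgam, Itgax, Itgb2 and Itgb7, the platelet chains Itga2b and Itgb3, and the epithelial chains Itgb4 and Itgb6, with Itga8, Itga9 and Itga11. Their means over the 6 libraries ran from 0.0027 FPKM (Itgam, 2 reads, both in EN replicate 3) to 0.963 FPKM (Itgb4). No read of Itgam in EC allows up to 0.0087 FPKM over that group (3 reads, counting error only). Itgb4, the partner of alpha6 in hemidesmosomes, had 0.974 ± 0.241 FPKM in EN and 0.952 ± 0.112 in EC, and overlaps Galk1 on the other strand.

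Itgax, an alpha chain of leukocyte receptors, was singled out among these low members after its values were seen. It had 99, 128 and 78 reads in EN (1.21, 1.38 and 1.01 FPKM), against 39, 42 and 48 reads in EC (0.541, 0.595 and 0.637 FPKM). The groups did not overlap, as in 37.9% of all genes tested, and the mean of Itgax was 2.03-fold higher in EN. Its limma adjusted p was 0.051 when all genes with a read were tested, a fit in which 866 of 20495 genes passed. The leukocyte marker Ptprc had 2 reads over all 6 libraries, and the sum of the 9 leukocyte markers was 4.85 to 5.95 FPKM in EN and 4.33 to 5.62 FPKM in EC. The Itgax model lies inside that of Itgam on the same strand. Itgb7 and Itgb3, with 39 and 24 reads in all, were also above EC in every EN library, on counts too small to weigh.

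**Figure D2:**
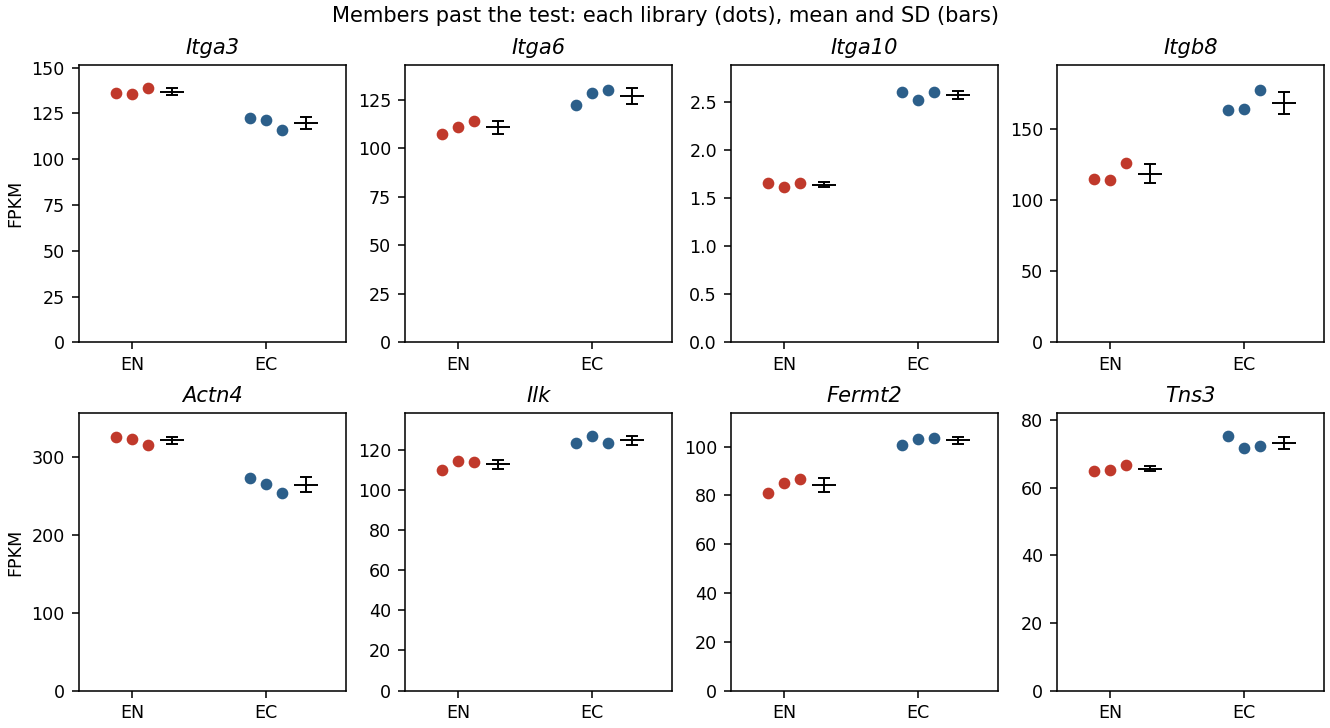
FPKM of the 8 members past the test in each EN and EC library (dots), with the mean and SD (bars, n = 3 each) and axes from 0. In all 8 the libraries of the 2 groups do not overlap, with Itga3 and Actn4 higher in EN and the other 6 lower. The 8 were chosen by the test on these same libraries, and 37.9% of all genes tested do not overlap.

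Fermt2 encodes kindlin-2, which binds beta integrin tails and activates the receptor together with talin (chromosome 15, 19807808 to 19876408, minus strand). It measured 81.0, 85.2 and 86.6 FPKM in EN, against 100.8, 103.2 and 103.6 FPKM in EC. The groups stood clearly apart, and the mean was 1.22-fold lower in EN (log2 change -0.28, SE 0.038, limma adjusted p = 0.0089).

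The talins, the other activators, did not pass. Tln1 stood at 72.7 ± 1.54 FPKM in EN and 69.4 ± 2.02 in EC (log2 change 0.07, 95% interval -0.02 to 0.16), and Creb3 overlaps it on the other strand. Tln2 stood at 35.6 ± 2.15 FPKM in EN and 34.0 ± 2.04 in EC (log2 change 0.07, interval -0.08 to 0.21). The ratio of Fermt2 to Tln1 FPKM was 1.16 ± 0.019 in EN and 1.48 ± 0.063 in EC (SD, n = 3 each). Fermt1, the epithelial kindlin, was near the test's lower limit at 1.11 ± 0.144 FPKM in EN and 1.12 ± 0.104 in EC.

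Ilk encodes integrin-linked kinase, the core of the complex with PINCH and parvin (chromosome 1, 170578889 to 170585189, plus strand). Its FPKM was 110.3, 114.3 and 113.9 in EN and 123.6, 127.3 and 123.6 in EC. All EN libraries were lower, and the mean was 1.11-fold lower in EN (log2 change -0.14, SE 0.034, limma adjusted p = 0.035). The models of Taf10 and Rrp8 overlap Ilk on the other strand, and no strand setting of the counting is known from the labels.

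The partners of ILK did not pass. Parva, alpha-parvin, stood at 55.5 ± 1.35 FPKM in EN and 55.8 ± 0.516 in EC (log2 change -0.0070, 95% interval -0.09 to 0.08). Lims1, PINCH-1, stood at 43.1 ± 2.37 FPKM in EN and 45.9 ± 0.748 in EC (log2 change -0.09, interval -0.20 to 0.02). The Ilk to Parva ratio of FPKM was 2.03 ± 0.013 in EN and 2.24 ± 0.058 in EC (SD, n = 3 each).

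Tns3 encodes tensin-3, a scaffold that joins beta tails to actin (chromosome 14, 88673881 to 88886198, minus strand). It had 65.1, 65.4 and 66.7 FPKM in EN, against 75.5, 71.9 and 72.5 FPKM in EC. The EN libraries were all lower and close together, and the mean was 1.12-fold lower in EN (log2 change -0.15, SE 0.036, limma adjusted p = 0.034). Tns1 stood at 16.6 ± 0.298 FPKM in EN and 16.9 ± 0.435 in EC and did not pass.

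Actn4 encodes alpha-actinin-4, an actin crosslinker of adhesions and stress fibres (chromosome 1, 87078020 to 87147333, minus strand). It was the highest intracellular member, with 324.9, 322.6 and 315.8 FPKM in EN, against 273.2, 264.6 and 253.9 FPKM in EC. All EN libraries were above all EC libraries, and the mean was 1.22-fold higher in EN (log2 change 0.28, SE 0.038, limma adjusted p = 0.0088). Its paralog Actn1 stood at 128.8 ± 4.82 FPKM in EN and 120.6 ± 1.19 in EC, without overlap, and did not pass (log2 change 0.09, adjusted p = 0.145, and 0.041 with limma voom). The ratio of Actn4 to Actn1 FPKM was 2.50 ± 0.119 in EN and 2.19 ± 0.094 in EC (SD, n = 3 each).

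The kinases and scaffolds of signalling did not pass. Pxn (paxillin) stood at 60.9 ± 1.81 FPKM in EN and 56.1 ± 1.14 in EC, without overlap (log2 change 0.12, adjusted p = 0.086, and 0.044 with limma voom). Bcar1, which encodes p130Cas, stood at 50.8 ± 1.83 FPKM in EN and 47.2 ± 1.74 in EC, also without overlap (log2 change 0.10, adjusted p = 0.160). Src stood at 30.1 ± 1.95 FPKM in EN and 27.8 ± 0.922 in EC (log2 change 0.11, 95% interval -0.03 to 0.24). Ptk2, focal adhesion kinase, stood at 45.2 ± 1.53 FPKM in EN and 44.2 ± 0.806 in EC (log2 change 0.03, interval -0.06 to 0.13).

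Of the remaining actin linkers, Vcl (vinculin) stood at 48.1 ± 2.58 FPKM in EN and 47.5 ± 1.22 in EC (log2 change 0.01, 95% interval -0.10 to 0.13). Zyx (zyxin) stood at 68.0 ± 0.469 FPKM in EN and 68.1 ± 1.97 in EC (log2 change -0.00093, interval -0.09 to 0.08). Over all 17 intracellular members the summed FPKM was 1233, 1233 and 1256 in EN and 1213, 1196 and 1188 in EC (log2 ratio 0.05, exact permutation p = 0.1, the smallest possible). That difference rests on Actn4. Its means of 321.1 FPKM in EN and 263.9 in EC lie further apart than the mean sums of 1240 and 1199. Without Actn4 the mean sum was therefore not higher in EN.

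**Figure D3:**
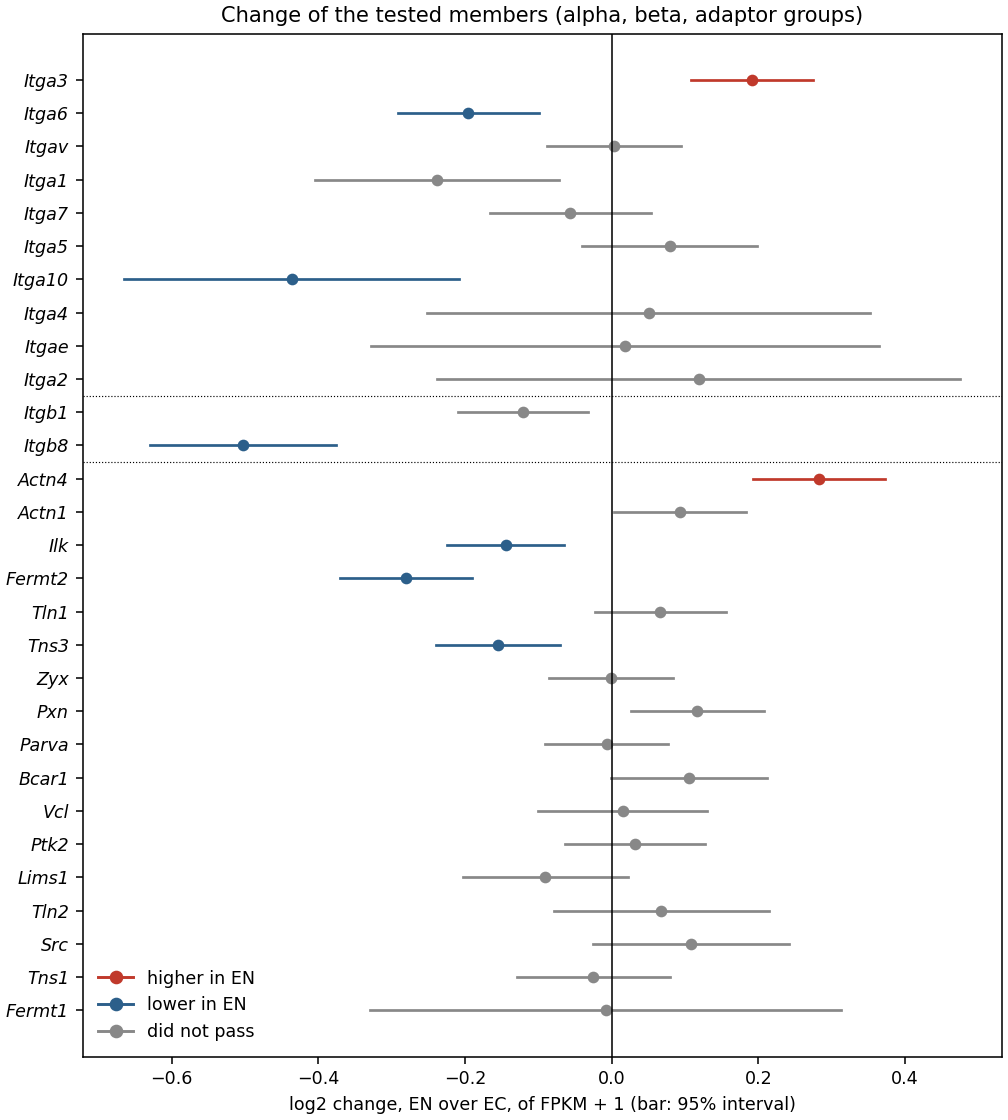
Log2 change of FPKM + 1, EN over EC, for the 29 tested members (dots) with the 95% interval of the limma fit (bars), grouped from top to bottom into alpha chains, beta chains and intracellular components. Itgb8 lies farthest from 0 at -0.50, Actn4 is the highest at 0.28, and the widest intervals belong to members near 1 FPKM.

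How firmly these calls stand differed between members. Those of Itgb8, Actn4 and Fermt2 held with each library left out in turn, with a highest adjusted p of 0.048. The other 5 were lost without EN replicate 1, EN replicate 2, EC replicate 2 or EC replicate 3, and those of Itga10, Tns3 and Ilk also without EC replicate 1. In the fits that lost them the adjusted p was 0.063 to 0.075 for Itga3, 0.082 to 0.098 for Itga6, 0.061 to 0.099 for Itga10, 0.066 to 0.120 for Tns3 and 0.056 to 0.131 for Ilk. The groups did not overlap in 13 of the 29 tested members (44.8%), against 37.9% of all genes tested. EN lay above EC in 5 of the 29, against 18.6% of all genes tested, and below in 8 of the 29, against 19.4%.

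**Figure D4:**
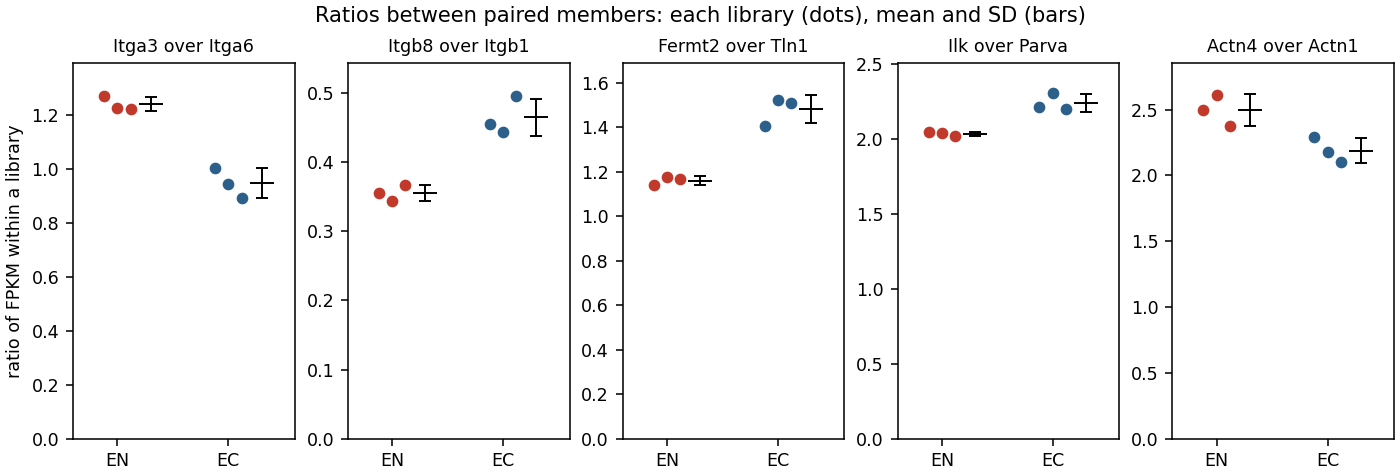
Ratio of FPKM within each library for 5 pairs of members, for EN and EC libraries (dots) with mean and SD (bars, n = 3 each). The pairs were chosen after their values were seen and carry no test. Itga3 over Itga6 and Actn4 over Actn1 are higher in all EN libraries, and the other 3 ratios are lower in all EN libraries.

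Transcripts of several matrix proteins that integrins bind were lower in EN. Of 28 matched ligand genes, 18 were tested: 2 passed as higher, 5 as lower and 11 not at all, with a median log2 change of -0.11. Over all genes tested, 7.24% were higher and 7.14% lower. Thbs1 (thrombospondin-1) had 69.7 ± 3.60 FPKM in EN and 118.4 ± 3.03 in EC, Fn1 (fibronectin) 203.6 ± 2.49 in EN and 271.9 ± 9.29 in EC, and Tnc (tenascin-C) 360.7 ± 6.99 in EN and 427.2 ± 3.78 in EC (SD, n = 3 each; limma adjusted p = 0.000584, 0.0026 and 0.0085). Spp1, which encodes osteopontin, a ligand of alphav integrins, was the highest ligand and went the other way. It had 4562, 4469 and 4214 FPKM in EN and 3373, 3536 and 3479 FPKM in EC (log2 change 0.35, adjusted p = 0.0090, and 0.052 without EN replicate 2). Without EN replicate 1, EC replicate 2 or EC replicate 3 the list had 1 gene higher and 3 lower, and without EN replicate 2 it had 0 higher and 3 lower. In these 4 fits only 338 to 446 of 12198 genes passed in either direction.

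Transcripts of other focal adhesion proteins moved both ways. Of 41 matched genes, 32 were tested: 6 passed as higher, 5 as lower and 21 not at all (median log2 change -0.03). The shares of all genes tested were 7.24% higher and 7.14% lower. Sorbs2, a vinculin-binding adaptor, had 32.4 ± 1.43 FPKM in EN and 43.0 ± 1.91 in EC (SD, n = 3 each) and fell by 0.40 on the log2 scale (limma adjusted p = 0.0076). The GTPase gene Rap1a, which acts upstream of talin, fell by 0.27, and the actin regulator Vasp rose by 0.48 (adjusted p = 0.017 and 0.021). Without EN replicate 1, EN replicate 2, EC replicate 2 or EC replicate 3 the list had 0 higher and 2 lower, and the calls on Rap1a and Vasp reached adjusted p of 0.071 without EN replicate 2 and 0.079 without EC replicate 2. Over the whole table these 4 fits called only 338 to 446 of 12198 genes in either direction.

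Among partners and regulators of integrins at the membrane, 2 of 17 tested genes passed as higher and 2 as lower (median log2 change 0.08). Across all genes tested these shares were 7.24% and 7.14%, so counts this small say little about the list. The tetraspanin Cd82 had 209.2 ± 11.1 FPKM in EN and 151.5 ± 6.98 in EC, and Plaur, the urokinase receptor, 23.5 ± 3.48 in EN and 15.9 ± 1.99 in EC (SD, n = 3 each; limma adjusted p = 0.0055 and 0.035). Cd47 had 38.7 ± 0.412 FPKM in EN and 46.9 ± 1.55 in EC, and Cav1 (caveolin-1) 423.8 ± 25.8 in EN and 509.6 ± 5.10 in EC (adjusted p = 0.010 and 0.019). The calls on Plaur, Cd47 and Cav1 were lost without single libraries (highest adjusted p = 0.114, 0.055 and 0.076). The list had 1 higher and 1 lower without EN replicate 1, EN replicate 2 or EC replicate 3, 1 higher and 0 lower without EC replicate 2, and 5 higher and 2 lower without EN replicate 3. Of all 12198 genes, 338 to 446 passed in the first 4 of these fits and 2059 without EN replicate 3.

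Genes of actin filaments and myosin at adhesions were lower more than higher by count, with 1 of 20 tested genes passing as higher and 5 as lower, at a median log2 change of 0.04. For all genes tested the shares were 7.24% higher and 7.14% lower. The formin Diaph1 rose by 0.25 on the log2 scale, while the formin Diaph3, tropomyosin Tpm1 and the kinase Rock2 fell by 0.27, 0.22 and 0.33 (limma adjusted p = 0.017, 0.018, 0.020 and 0.021). All 4 calls were lost without EN replicate 2, EC replicate 2 or EC replicate 3 (highest adjusted p = 0.076). The list had 1 higher and 0 lower without EN replicate 1, 0 of either without EN replicate 2, EC replicate 2 or EC replicate 3, and 4 higher and 7 lower without EN replicate 3. Among all 12198 genes, 338 to 446 passed in the first 4 of these fits and 2059 without EN replicate 3.

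Some other features of the libraries differed between the groups as well, while the ranges of the mitochondrial share and of the fibroblast and platelet sums overlapped. Total reads worked back from FPKM were 16654025 to 19626012 in EN and 15296193 to 16165804 in EC, and mitochondrial genes took 4.40% to 5.50% of reads in EN and 5.43% to 6.09% in EC. Of 10 tested Schwann and glial markers 6 were lower and 1 was higher in EN, against 7.14% and 7.24% of all genes tested. The 11 matched markers summed to 420.4 to 452.9 FPKM in EN and 477.8 to 486.6 FPKM in EC. The 9 endothelial markers summed to 13.1 to 13.9 FPKM in EN and 9.73 to 11.7 FPKM in EC, with no read for Cldn5. Fibroblast markers summed to 71.9 to 75.2 FPKM in EN and 73.8 to 77.1 FPKM in EC, with no read for Lum, and the 7 platelet markers, 1 of them a member, to at most 0.797 FPKM. The part of these differences in the integrin results was not tested, and in bulk RNA fewer cells of a type and less RNA per cell cannot be told apart.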

How the data were processed

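The authors deposited 1 table of FPKM per gene with coordinates on Rnor_6.0, lengths and biotypes. HISAT2 2.0.5 and Rnor_6.0 are named per the submitters' processing notes. Libraries were made from total RNA with an Illumina TruSeq kit, per the labels' protocols. Counter, annotation release, strand setting and filters: not given in the sources used here. Multiplying FPKM by gene length and dividing by the smallest step in a library gave whole reads (100% of non-zero values, within 0.001). No libraries were identical: chi-square over degrees of freedom was 3.82 to 8.98 within groups and 10.6 to 23.4 between them.

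The main test, run in R 4.3.3, was limma 3.58.1 with its trend option and group as the only term. It used log2(FPKM + 1) of the 12198 genes whose mean reached 1 FPKM. It was two-sided with Benjamini-Hochberg adjustment, and was tested on simulated data first. For summed FPKM an exact permutation test (two-sided) was used. Alternatives were pseudocounts of 0.1 and 0.5, no filter or a minimum of 5 FPKM, quantile normalization, median centring, the TPM scale, protein-coding models only, removal of the gene-length trend (lowess, span 0.5), a replicate block, each library left out, and limma voom on whole reads.

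Every member is reported: those past the test with each library's value, the others with at least 10 FPKM by group mean, the rest by range. Itgax, Itgb7, Itgb3, Itgb4 and Fermt1 were singled out, and the ratios chosen, after their values were seen. Each other list is represented by at most 4 called genes, those of lowest adjusted p. Some list genes are not reported here. Members and lists were chosen with earlier results of these data known. List symbols with no match were Crkl, Dock1, Lama3, Ccn1, Ccn2, Nischarin, Mdgi, Myl6, Diaph2, Foxd3 and Pecam1. Promoter sequences are from RefSeq (GRCr8), matched by symbol for 30 of 41 members. Groups of 3 are too small for the check for libraries far from their group.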

Additional observations from a re-analysis of the deposited data

How the results depend on the processing

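With all genes that had a read tested, 866 of 20495 genes passed in the whole table. With limma voom 2347 passed, and with 1 library left out 338 to 2059 did, against 1754 of 12198 in the main test. Members higher in EN were 4 with limma voom (Actn1 and Pxn added) and 1 to 2 with 1 library left out, against 2. Members lower in EN were 8 with limma voom (Itga1 and Itgb1 added) and 2 to 8 with 1 library left out, against 6. The members' median log2 change was 0.027 with limma voom and -0.0062 to 0.022 with 1 library left out, against 0.0035. No member past the test changed direction under any alternative run. Itga10 did not pass without a filter (adjusted p = 0.053), is not tested at 5 FPKM, and did not pass with the replicate block (0.061). Tns3 did not pass with the length trend removed (0.059). With the replicate block 2 members were higher and 6 lower, Itga1 taking the place of Itga10. Same-numbered libraries did not deviate together (Pearson r 0.088, -0.095 and -0.020 across genes), so the numbers were not taken as pairs. Depth limits the members near 1 FPKM, which rest on 409 to 1051 reads over all libraries.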
